A study of Mus musculus with 6 samples.

Results

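The 9 genes described here are the 4 forebrain DLX homeobox genes Dlx1, Dlx2, Dlx5 and Dlx6, the long non-coding RNA Dlx6os1 of the Dlx5 and Dlx6 locus, and 4 further transcription factors of the interneuron lineage, Lhx6, Sox6, Nkx2-1 and Sp9. They were chosen by name from a table of 20040 gene entries, and all 9 passed the filter on low values that left 14983 genes for testing. Messenger RNA was sequenced in 6 libraries from cells labelled as neurons, grown from the cortex of C57BL/6 mouse embryos at embryonic day 18. Of these, 3 were labelled wild type (WT) and 3 carried a knockout of KDM6B (KO), a demethylase that removes the repressive trimethyl mark from lysine 27 of histone H3. Neither group received a further treatment or transgene per the labels. The making of the knockout, the days in culture and the embryos per library are not stated in the labels. No label says that the libraries came from separate cultures, and p-values here reflect how far the 6 libraries spread, which may be technical.

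Cortical interneurons do not arise in the cortex itself but in the ganglionic eminences of the ventral forebrain, from which they migrate into the cortex before birth. DLX proteins act there as homeodomain factors that bind DNA at sites with a TAATT core and switch on GABAergic genes, with Dlx1 and Dlx2 expressed early in progenitors and Dlx5 and Dlx6 later, partly as their targets. In the medial ganglionic eminence Nkx2-1 induces Lhx6, which in turn acts upstream of Sox6 in cells that become somatostatin and parvalbumin interneurons. Sp9 is a zinc finger factor of the same ventral regions. Interneurons are a minority of cortical neurons.

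Promoter windows of Dlx1 and Dlx2 are printed because these genes kept a similar ratio to each other in both groups. Those of Dlx6os1 are printed because it lies at the locus of Dlx5, which fell. RefSeq windows on GRCm38.p6 run from 250 bases before to 50 bases after an annotated start, and 7 of the 9 members matched, with 15 windows. Dlx5 and Dlx6 had no window, and the windows of Dlx6os1 do not stand for their promoters. The gene positions given further below come from GENCODE M21, whose starts can differ from those of RefSeq. The GENCODE starts are 71528113 for Dlx1 and 6871592 for Dlx6os1. By these, the Dlx1 window and both windows of Dlx6os1 lie inside the gene, so they need not be the promoter at that start. The Dlx1 window (chr2:71529195-71529494, plus strand) and the Dlx2 window (chr2:71546705-71547004, minus strand) are shown with each CpG in capitals. The 2 windows of Dlx6os1 (chr6:6869484-6869783 and chr6:6861634-6861933, both minus strand) are shown with the homeodomain core TAATT, or its reverse complement AATTA, in capitals.
Dlx1: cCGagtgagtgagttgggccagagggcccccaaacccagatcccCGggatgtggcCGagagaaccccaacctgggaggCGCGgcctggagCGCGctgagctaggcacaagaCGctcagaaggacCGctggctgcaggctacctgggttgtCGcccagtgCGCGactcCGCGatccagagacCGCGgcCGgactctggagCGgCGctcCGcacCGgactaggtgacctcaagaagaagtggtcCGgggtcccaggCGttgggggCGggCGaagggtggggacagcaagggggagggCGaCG
Dlx2: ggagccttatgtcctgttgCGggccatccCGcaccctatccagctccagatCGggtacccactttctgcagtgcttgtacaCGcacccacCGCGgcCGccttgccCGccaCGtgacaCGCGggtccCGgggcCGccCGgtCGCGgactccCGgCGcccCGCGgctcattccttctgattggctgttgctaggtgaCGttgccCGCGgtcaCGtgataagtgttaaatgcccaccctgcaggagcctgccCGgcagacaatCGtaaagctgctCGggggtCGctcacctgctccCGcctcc
Dlx6os1 window 1: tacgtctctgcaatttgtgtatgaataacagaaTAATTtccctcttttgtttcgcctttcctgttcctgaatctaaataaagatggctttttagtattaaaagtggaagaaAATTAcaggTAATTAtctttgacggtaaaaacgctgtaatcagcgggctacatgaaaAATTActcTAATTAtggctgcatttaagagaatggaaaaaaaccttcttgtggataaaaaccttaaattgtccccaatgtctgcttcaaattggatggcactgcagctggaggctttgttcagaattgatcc
Dlx6os1 window 2: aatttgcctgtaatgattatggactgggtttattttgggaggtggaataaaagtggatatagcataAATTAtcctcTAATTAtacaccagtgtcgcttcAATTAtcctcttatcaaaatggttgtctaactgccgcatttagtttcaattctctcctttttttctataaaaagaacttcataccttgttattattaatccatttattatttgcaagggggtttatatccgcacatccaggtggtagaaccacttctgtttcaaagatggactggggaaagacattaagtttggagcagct
The Dlx1 window holds 27 CpG sites with a GC content of 69.3%, and 84.5% of 32851 mouse promoter windows of this length hold fewer CpG sites. The Dlx2 window holds 29 CpG sites with a GC content of 66.3%, and 87.1% of all windows hold fewer. Over all windows the median is 7 CpG sites. Windows 1 and 2 of Dlx6os1 hold 5 and 3 CpG sites, with GC contents of 35.7% and 35.3%.

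TAATT was searched on both strands, and the palindrome TAATTA counts as 2 overlapping matches, 1 on each strand. No match stands in the Dlx1 or Dlx2 window. Window 1 of Dlx6os1 has 7 matches, a number reached by 0.14% of all windows, and window 2 has 4, reached by 1.65%. Among those matches TAATTA occurs 2 times in window 1 and 1 time in window 2, and 5.29% of all windows hold it at least 1 time. The core itself stands in 27.0% of all windows, and 2 matches stand in the Sp9 window (chr2:73271676-73271975, plus strand), which has 25 CpG sites. These matches describe letters only, and binding was not measured.

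Each library comprised at least 19761714 to 23503660 counts, recovered as the smallest whole numbers behind the deposited values. Kdm6b itself stood at 30.86, 30.32 and 30.73 TPM in WT replicates 1 to 3 and at 11.19, 11.06 and 12.04 TPM in KO, so the KO libraries held 37.3% of the WT level (limma, log2 fold change -1.39 ± 0.05 SE, adjusted p = 1.1e-05). TPM is a share of transcripts corrected for gene length and sums to 1000000 in each library. Transcripts of the Y chromosome (Ddx3y, Eif2s3y, Kdm5d, Uty) lay in KO at 0.361% to 0.548% of their WT level, while Xist was 3.13-fold higher. The groups thus differ in sex-linked transcripts as well as in genotype, and genotype and sex cannot be told apart. All 9 members lie on autosomes.

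Of the 9 members, 1 rose in KO (Dlx1), 2 fell (Dlx5 and Lhx6) and 6 did not pass the threshold of an adjusted p under 0.05. Across all 14983 genes tested with limma, 10.9% passed, 4.15% higher and 6.74% lower in KO. The WT and KO libraries did not overlap for 6 of the 9 members, 3 with KO above (Dlx1, Dlx2, Nkx2-1) and 3 with KO below (Dlx5, Dlx6os1, Lhx6), and the same held for 31.7% of all genes tested. The members' median log2 fold change was 0.03, against -0.02 over all genes tested, and their changes ran in both directions. In bulk RNA, fewer cells of a type and less RNA per cell cannot be told apart. Among all genes 622 were higher and 1010 lower with the values as deposited, a split that moved to 867 higher and 767 lower when each library was centred on its median. The median log2 fold change of all genes shifted by 0.026 under that scaling, and Dlx1, Dlx5 and Lhx6 kept their calls under it.

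By level in WT, Dlx1 was the most abundant member at 43.15 ± 0.913 TPM (SD, n = 3), followed by Sox6 at 32.46 ± 1.21. Dlx6os1 at 27.27 ± 2.26 and Lhx6 at 26.77 ± 0.757 overlapped and could not be ordered. Dlx5 stood at 14.77 ± 1.34 and Dlx2 at 11.71 ± 0.689, while Dlx6 at 8.77 ± 1.83 and Sp9 at 8.20 ± 0.696 again overlapped. Nkx2-1 was lowest, at 1.001 ± 0.333 TPM, from 62 counts summed over the WT libraries. Dlx6 and Nkx2-1 had the widest relative spread in WT, with coefficients of variation of 20.9% and 33.3%, where counting error alone would give 12.2% and 22%.

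**Figure D1:**
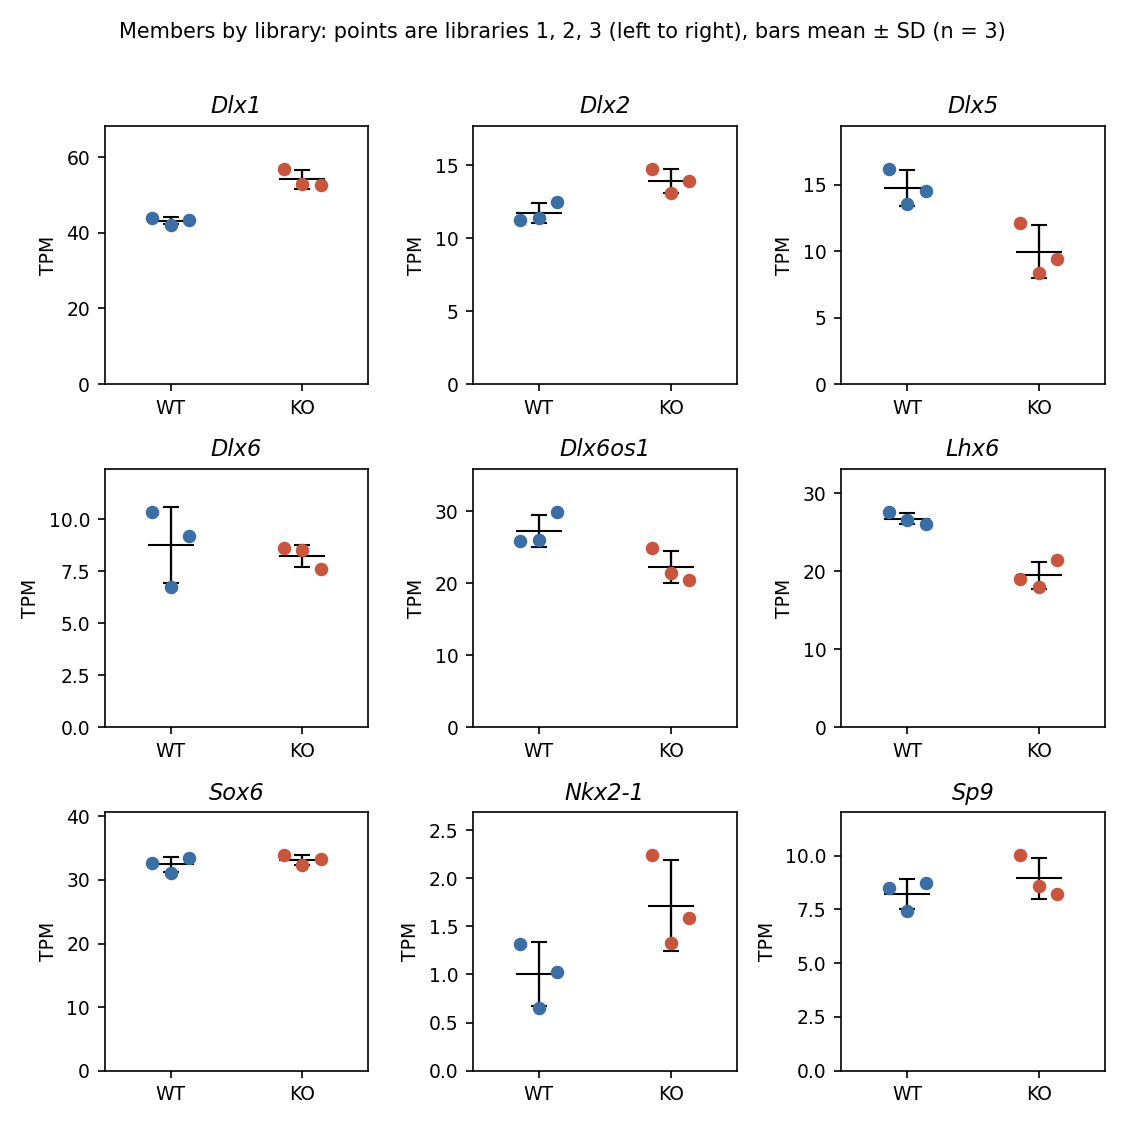
Level of each member in TPM (vertical axes, each from 0) in the WT (blue) and KO (red) libraries, with points for libraries 1 to 3 from left to right and bars for mean ± SD (n = 3). The 3 KO points of Dlx1 lie at 52.52 to 56.9 TPM above all WT points, those of Dlx5 and Lhx6 lie below all WT points, and those of Sox6, Dlx6 and Sp9 intermingle with WT.

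Dlx1 (chromosome 2, 71528113 to 71533981, plus strand, GRCm38 as in GENCODE M21) encodes a DLX factor of ventral progenitors that several interneuron classes keep expressing. It stood at 44.0, 42.18 and 43.26 TPM in WT replicates 1 to 3 and at 56.9, 52.83 and 52.52 TPM in KO. Each KO library was above every WT library. The KO mean of 54.08 ± 2.44 TPM was 1.25-fold the WT mean (log2 fold change 0.32 ± 0.04 SE, limma adjusted p = 0.0026, 95% interval of the fold 1.17 to 1.33). The counts behind it summed to 2584 in WT and 3260 in KO. The call held in all 17 alternative analyses.

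Dlx2 (chromosome 2, 71543408 to 71546754, minus strand) is the convergent partner of Dlx1 in a bigene pair, with starts 18.6 kb apart, and shares its early role in ventral progenitors. It measured 11.23, 11.41 and 12.5 TPM in the WT libraries, against 14.77, 13.14 and 13.95 TPM in the KO libraries. Again all KO values lay above all WT values. The ratio of means was 1.19 (log2 fold change 0.24 ± 0.07 SE) with a 95% interval of 1.06 to 1.32, but the limma adjusted p of 0.062 missed the threshold. It passed in 3 of the 17 alternatives, with adjusted p between 0.031 and 0.18 over all of them. Within a library, the ratio of Dlx1 to Dlx2 was 3.69 ± 0.23 in WT and 3.88 ± 0.13 in KO, and these overlapped.

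Dlx1as, a non-coding transcript on the opposite strand, overlaps Dlx1 over its whole annotated length of 5869 bp. Whether the counting used strand is unknown here, so reads in the shared exons cannot be assigned to either with certainty. Dlx1as stood at 24.75 ± 0.961 TPM in WT and 25.29 ± 1.1 in KO (log2 fold change 0.03 ± 0.05 SE, limma adjusted p = 0.76). The ratio of Dlx1 to Dlx1as was 1.70, 1.75 and 1.78 in WT and 2.24, 2.19 and 2.00 in KO, so that these groups did not overlap. Of the other DLX entries, Dlx3, Dlx4 and Dlx4os (listed as A730090H04Rik) were under the filter, with at most 20 counts summed over a group. Neither Dlx1as nor the other DLX transcript above the filter, Dlx6os2, passed by limma at an adjusted or unadjusted p under 0.05, nor by voom.

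At the second locus, Dlx5 (chromosome 6, 6877805 to 6882085, minus strand) encodes a later DLX factor of postmitotic interneurons. Its WT libraries held 16.21, 13.55 and 14.56 TPM and its KO libraries 12.16, 8.341 and 9.44 TPM. All KO values were below all WT values, with KO replicate 1 nearest to WT. The KO mean of 9.981 ± 1.97 TPM was 67.6% of the WT mean (log2 fold change -0.56 ± 0.13 SE, limma adjusted p = 0.034, 95% interval of the fold 0.551 to 0.839). This rests on 449 counts summed over WT and 304 over KO. The call was lost in 7 of 17 alternatives. These were the fits without KO replicate 2, without KO replicate 3 and without WT replicate 1, 2 or 3, where the adjusted p was 0.087, 0.11, 0.12, 0.062 and 0.091, the fit with no filter (0.062) and the fit with no variance trend (0.09).

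Dlx6 (chromosome 6, 6863334 to 6868568, plus strand), the partner of Dlx5 with a start 18.8 kb away, measured 10.34, 6.757 and 9.208 TPM in the WT libraries, against 8.593, 8.501 and 7.626 TPM in the KO libraries. The groups overlapped, and WT replicate 2 was the lowest of all libraries. The ratio of means was 94.0% (log2 fold change -0.07 ± 0.14 SE, limma adjusted p = 0.82), with a 95% interval of the fold from 0.76 to 1.2. With 203 counts in WT and 192 in KO, smaller changes in either direction were not detectable. The fold of Dlx5 lies outside this interval, but its own 95% interval of 0.551 to 0.839 overlaps it. A difference between the changes of Dlx5 and Dlx6 was not tested.

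Dlx6os1 (chromosome 6, 6820189 to 6871592, minus strand), also known as Evf2, is a long non-coding RNA that spans Dlx6 on the opposite strand and takes part in regulating Dlx5 and Dlx6. It stood at 25.92, 26 and 29.87 TPM in the WT libraries, against 24.82, 21.44 and 20.51 TPM in the KO libraries. The KO values all lay below the WT values. The KO mean was 81.6% of WT (log2 fold change -0.29 ± 0.08 SE, 95% interval of the fold 0.716 to 0.936) and missed the threshold with a limma adjusted p of 0.066. It passed in 2 of the 17 alternatives, with adjusted p between 0.0012 and 0.18. Since the gene body of Dlx6 lies wholly inside that of Dlx6os1, over 5235 bp, the strand reservation made for Dlx1 applies to this pair. Dlx6os2, listed as Dlx6as2 and likewise overlapping Dlx6, stood at 1.384 ± 0.787 TPM in WT and 0.8064 ± 0.215 in KO and did not pass (adjusted p = 0.41).

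Setting the loci side by side within each library removed differences in library scaling. All ratios within a library given here were chosen after the values had been seen and carry no test. The summed TPM of Dlx1 and Dlx2 over that of Dlx5 and Dlx6 was 2.08, 2.64 and 2.35 in WT and 3.45, 3.92 and 3.89 in KO. Every KO library was above every WT library, and the ratio of means was 1.59. The ratio of Dlx5 to Dlx6 was 1.57, 2.01 and 1.58 in WT and 1.42, 0.981 and 1.24 in KO, also without overlap. That of Dlx6os1 to Dlx6 was 3.20 ± 0.67 in WT and 2.70 ± 0.18 in KO, with overlap. The 4 DLX messengers together made up 78.4 ± 4.06 TPM in WT and 86.3 ± 5.35 TPM in KO, and the share of Dlx1 in that sum was 55.1% ± 1.7 in WT and 62.7% ± 1.1 in KO. The sum was higher in each KO library than in each WT library by a narrow margin, 82.8 TPM at the lowest in KO and 81.8 at the highest in WT.

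**Figure D2:**
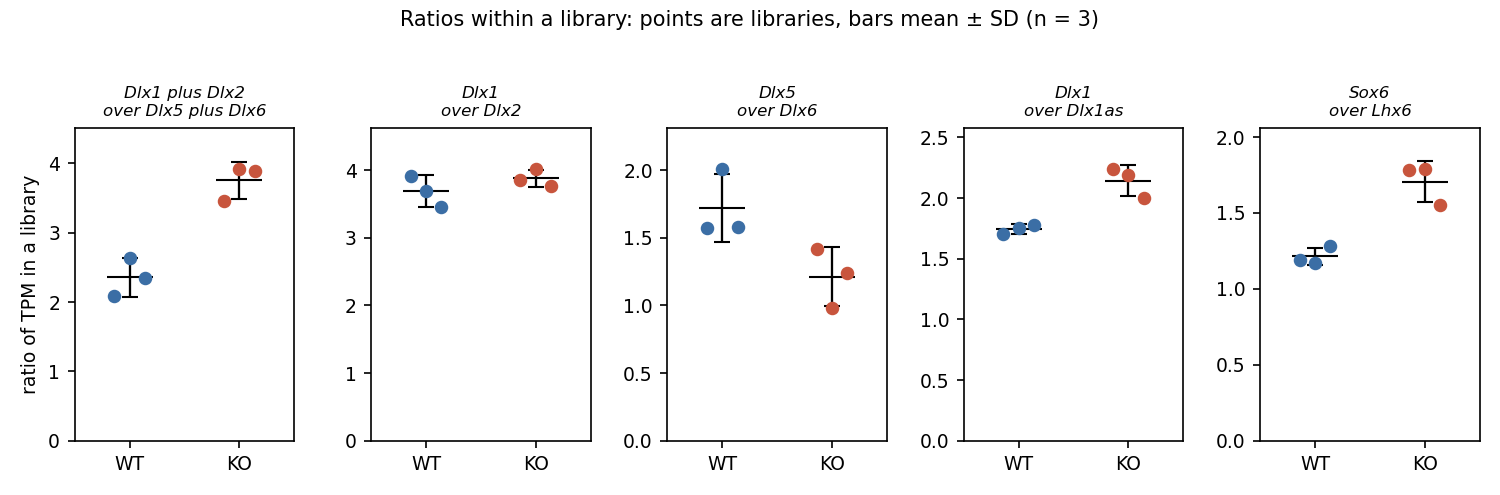
Ratios of TPM between members within a library (vertical axes, each from 0), with WT libraries in blue, KO libraries in red and bars for mean ± SD (n = 3). The ratio of Dlx1 plus Dlx2 over Dlx5 plus Dlx6 lies at 2.08 to 2.64 in WT and 3.45 to 3.92 in KO, while Dlx1 over Dlx2 overlaps between the groups.

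Lhx6 (chromosome 2, 36081953 to 36105408, minus strand) encodes the LIM homeobox factor that interneurons from the medial ganglionic eminence keep into adulthood. The WT libraries held 27.6, 26.58 and 26.12 TPM and the KO libraries 19.02, 18.03 and 21.44 TPM. No KO value reached the lowest WT value. The KO mean of 19.5 ± 1.75 TPM was 72.8% of the WT mean (log2 fold change -0.45 ± 0.07 SE, limma adjusted p = 0.0051, 95% interval of the fold 0.658 to 0.813). It rests on 2062 counts in WT and 1505 in KO, and the call held in all 17 alternatives. Sst, the somatostatin gene of a large class of Lhx6 cells, fell to 73.0% of WT, and the ratio of Lhx6 to Sst was 0.046 ± 0.0022 in WT and 0.0458 ± 0.0032 in KO.

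Sox6 (chromosome 7, 115470872 to 116038796, minus strand), an SRY-box factor that acts after Lhx6, measured 32.74, 31.13 and 33.51 TPM in the WT libraries, against 33.88, 32.35 and 33.28 TPM in the KO libraries. The groups overlapped. The fold was 1.02 (log2 fold change 0.03 ± 0.04 SE, limma adjusted p = 0.70) with a 95% interval of 0.956 to 1.09, from 6554 and 6730 counts. A change of the size seen in Lhx6 lies outside that interval. Within libraries the ratio of Sox6 to Lhx6 was 1.19, 1.17 and 1.28 in WT and 1.78, 1.79 and 1.55 in KO, without overlap. Sox6 is also expressed outside interneurons, for example in the oligodendrocyte lineage.

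Nkx2-1 (chromosome 12, 56531958 to 56536908, minus strand) specifies the medial ganglionic eminence and is switched off in most interneurons as they enter the cortex. It lay near the filter, at 1.322, 0.6567 and 1.023 TPM in the WT libraries, against 2.239, 1.324 and 1.584 TPM in the KO libraries. The lowest KO value stood just above the highest WT value. The fold was 1.715 (log2 fold change 0.57 ± 0.24 SE, limma adjusted p = 0.18), with a 95% interval of the log2 fold change from 0.01 to 1.12 on log2(TPM + 0.5), a scale that understates changes of low genes. The libraries held 13 to 27 counts in WT and 30 to 46 in KO. A difference was not established at this depth, and the threshold was passed only in voom on recovered counts (adjusted p = 0.044) among 16 alternatives.

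Sp9 (chromosome 2, 73271925 to 73284706, plus strand), which lies 1.73 Mb from Dlx2, acts in ganglionic eminence progenitors and striatal neurons. It measured 8.475, 7.409 and 8.717 TPM in the WT libraries, against 10.01, 8.586 and 8.227 TPM in the KO libraries, with overlap. The fold was 1.09 (log2 fold change 0.12 ± 0.10 SE, limma adjusted p = 0.51, 95% interval 0.928 to 1.27).

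**Figure D3:**
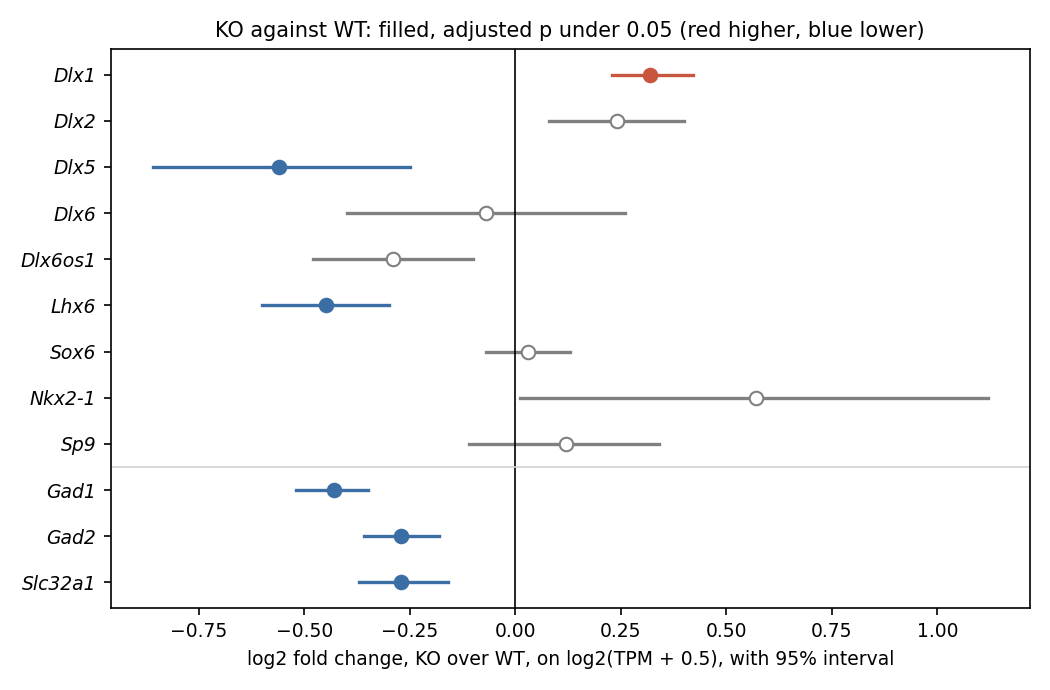
Log2 fold change of KO over WT on log2(TPM + 0.5) with its 95% interval (horizontal axis) for the 9 members and, under the grey line, for Gad1, Gad2 and Slc32a1. Filled points passed an adjusted p of 0.05: Dlx1 at 0.32, Dlx5 at -0.56, Lhx6 at -0.45, Gad1 at -0.43, and Gad2 and Slc32a1 at -0.27.

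Because bulk values do not separate interneurons from other cells, each member was also set against the genes that make and load GABA. Gad1, the main glutamate decarboxylase, stood at 304.4, 306 and 306.5 TPM in the WT libraries, against 240.5, 217.8 and 220.4 TPM in the KO libraries (74.0% of WT, limma adjusted p = 5.9e-04). Gad2, the second decarboxylase, fell to 82.95% of WT (adjusted p = 0.0054), and Slc32a1, the vesicular GABA transporter, to 83.0% (adjusted p = 0.0094). All 3 calls held in all 17 alternatives. For each library, the mean log2 level of these 3 genes was subtracted from that of the member, and groups were compared by an exact two-sided permutation test, which with 3 against 3 libraries cannot give a p under 0.1.

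Relative to the GABA genes, Dlx1 was 1.56-fold, Dlx2 1.48-fold, Sp9 1.36-fold, Sox6 1.28-fold and Nkx2-1 1.85-fold higher in KO. For these 5 members the groups did not overlap and the exact permutation p was 0.1 each (0.18 adjusted over the 9). Because the 3 GABA genes fell themselves, a gene unchanged in TPM stands higher in KO on this scale. Sox6 and Sp9 were 1.02-fold and 1.09-fold in TPM with overlapping groups, so their separation here largely restates that fall. The same fall adds to the values of Dlx1, Dlx2 and Nkx2-1. Their log2 differences were 0.65, 0.57 and 0.89 on this scale, against log2 fold changes of 0.32, 0.24 and 0.57 in TPM. The share of all genes that stand apart on this scale was not determined. For Dlx1 the log2 differences to the GABA genes were -1.74, -1.76 and -1.73 in WT and -1.09, -1.07 and -1.14 in KO. Lhx6 stood at 91.6% of its WT level on this scale (exact permutation p = 0.3) and Dlx5 at 85.1% (exact permutation p = 0.3), both with overlapping groups, so neither was shown to differ beyond the fall of the GABA genes. Dlx6 was 1.19-fold (exact permutation p = 0.2) and Dlx6os1 1.02-fold (exact permutation p = 0.8) its WT level, again with overlap. For Dlx6os1 the log2 difference of 0.03 was 0.146 against Gad1 alone, -0.020 against Gad2 alone and -0.021 against Slc32a1 alone.

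**Figure D4:**
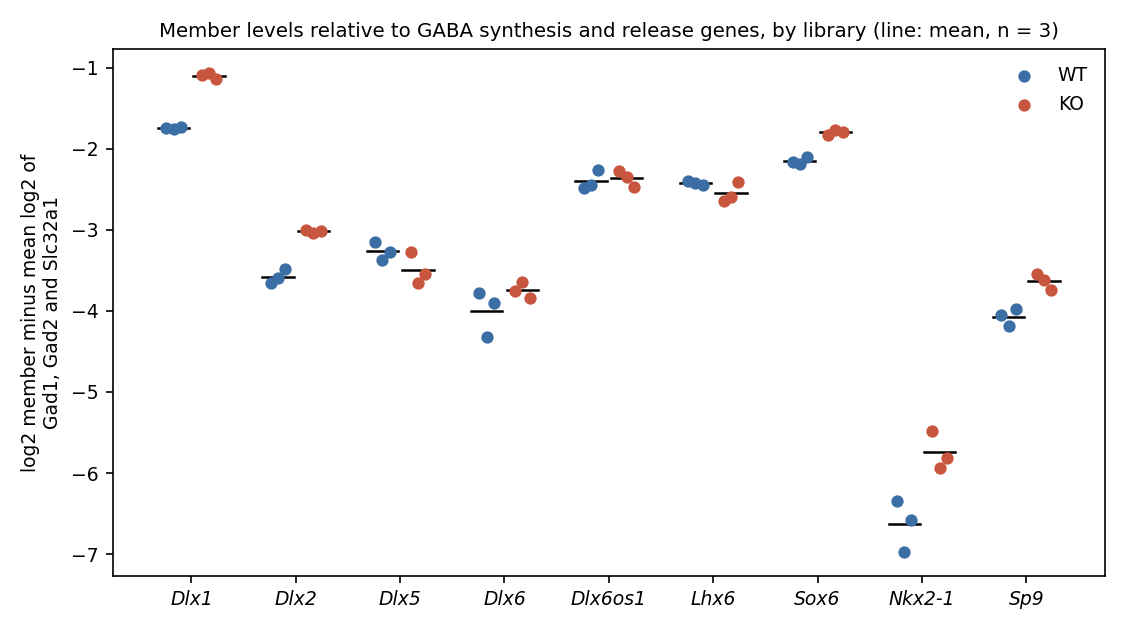
Log2 level of each member minus the mean log2 level of Gad1, Gad2 and Slc32a1 in the same library (vertical axis), with WT in blue, KO in red and a line at the mean (n = 3). KO points lie above all WT points for Dlx1, Dlx2, Sox6, Nkx2-1 and Sp9 and overlap with WT for Dlx5, Dlx6, Dlx6os1 and Lhx6.

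The 7 surrounding gene lists held 90 tested genes besides the members. Of these, 12 were higher and 23 lower in KO by limma, where 4.15% and 6.74% of all genes were. The lists were drawn up with earlier results of these data known, so the counts describe them and are no independent evidence. Among 11 tested regulators of the medial ganglionic eminence lineage, 1 rose and 3 fell, with a median log2 fold change of -0.05, and 1 fell without KO replicate 3. Zeb2, a zinc finger factor that directs interneurons towards the cortex, fell from 58.25 ± 2.59 to 46.15 ± 0.0792 TPM (79.2% of WT, adjusted p = 0.0019). Mef2c, a factor of maturing neurons including parvalbumin cells, fell to 89.5% of WT (adjusted p = 0.012), a call lost without KO replicate 3 and with no variance trend. Cux2, a cut-like homeobox gene, rose 1.19-fold (adjusted p = 0.031), a call lost in 7 of 17 alternatives, among them those leaving out any KO replicate, or WT replicate 2 or 3. Lhx8, Gbx1, Gbx2 and Nkx6-2 were under the filter.

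Of 10 regulators of the caudal ganglionic eminence lineage, 0 rose by limma and 3 fell, with a median of -0.06. At an unadjusted p under 0.05, 0 were higher and 5 lower, by voom 0 and 4, and with no variance trend 1 was higher. The nuclear receptor Nr2f2 stood at 19.95, 19.94 and 22.11 TPM in the WT libraries, against 14.89, 13.04 and 14.32 TPM in the KO libraries, or 68.1% of WT (log2 fold change -0.54 ± 0.07 SE, limma adjusted p = 0.0026). Its relative Nr2f1 fell to 87.0% of WT (adjusted p = 0.0047). The activity-induced factor Egr3 fell to 75.3% (adjusted p = 0.02), a call lost with no variance trend and without KO replicates 2 or 3 or WT replicates 1 or 3. The other 7, among them Prox1 and Sp8, did not pass. Of 18 tested regulators of subpallial progenitors and of striatal or olfactory neurons, 1 rose, the TALE homeobox gene Meis2 at 1.16-fold (from 90.44 ± 2.02 to 104.8 ± 1.85 TPM, adjusted p = 0.0036). None fell by limma. At an unadjusted p under 0.05, 3 were higher and 4 lower, and by voom also 3 and 4. With the filter at 2 TPM, no filter, a robust variance trend, or without KO replicate 1, limma called 1 lower. Their median was 0.04, and the early patterning genes Gsx1 and Gsx2 did not pass.

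Of 23 tested genes that mark interneuron subtypes, 11 fell and 2 rose, with a median of -0.23. Vip, the vasoactive intestinal peptide of a caudal eminence class, stood at 22.32, 19.15 and 19.46 TPM in the WT libraries, against 9.04, 9.441 and 10.1 TPM in the KO libraries (46.9% of WT, limma adjusted p = 2.7e-04). Sst fell from 582.8 ± 23.4 to 425.5 ± 14.5 TPM (adjusted p = 4.4e-04), and the cholecystokinin gene Cck fell to 59.8% of WT (adjusted p = 4.9e-04). The neurexophilin Nxph1, which Lhx6 cells express, fell to 76.2% (adjusted p = 7.9e-04). Npy, Calb1, Tac1, Cort, Lamp5, Elfn1 and Kcnc2 fell as well, while Reln (1.16-fold) and Chodl (1.80-fold, adjusted p = 0.045) rose. The call of Chodl was lost in 8 of 17 alternatives, among them those without any KO replicate or without WT replicate 2 or 3. Those of Cort and Elfn1 were lost in 6 each, both without KO replicate 2, WT replicate 1 or WT replicate 2, Cort also without KO replicate 3 and Elfn1 without KO replicate 1. Pvalb was under the filter. Several of these genes, such as Cck and Reln, are also expressed by other cortical neurons.

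Of 7 genes for GABA synthesis, release and uptake, 4 fell and 1 rose, with a median of -0.12. Besides Gad1, Gad2 and Slc32a1, the GABA transaminase Abat fell to 91.7% of WT, a call lost in 6 of 17 alternatives, among them those without KO replicate 1 or 2 or WT replicate 1 or 3. The GABA transporter Slc6a11, which is mainly astrocytic, rose 1.128-fold (adjusted p = 0.018), a call lost in 6 of 17 alternatives, among them those without KO replicates 2 or 3 or WT replicates 2 or 3. Of 19 tested genes of interneuron migration, 7 rose and 2 fell, with a median of 0.10. Bulk values do not show whether these changes lay in interneurons or in other cells. The higher count was 4 without WT replicate 1 and 5 without KO replicate 2, KO replicate 3 or WT replicate 3. The guidance receptor Robo1 rose 1.22-fold, from 67.35 ± 0.269 to 82.19 ± 1.41 TPM (limma adjusted p = 9.7e-04). Nrp1, a semaphorin receptor, rose 1.26-fold (adjusted p = 0.003) and the adhesion molecule Cxadr 1.19-fold (adjusted p = 0.0048). Robo2 rose as well, and so did Nrp2, Nrg1 and Dcx, whose calls were lost in 6 of 17, 7 of 17 and 2 of 16 alternatives. Without WT replicate 1 these 3 calls were lost together, and without KO replicate 2, KO replicate 3 or WT replicate 3 those of Nrp2 and Nrg1. Nrp2 also lost its call without KO replicate 1 and Nrg1 without WT replicate 2. The ephrin receptor Epha4 fell to 86.45% of WT (adjusted p = 0.002), as did Erbb4, the neuregulin receptor of interneurons, to 85.8% (adjusted p = 0.007).

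**Figure D5:**
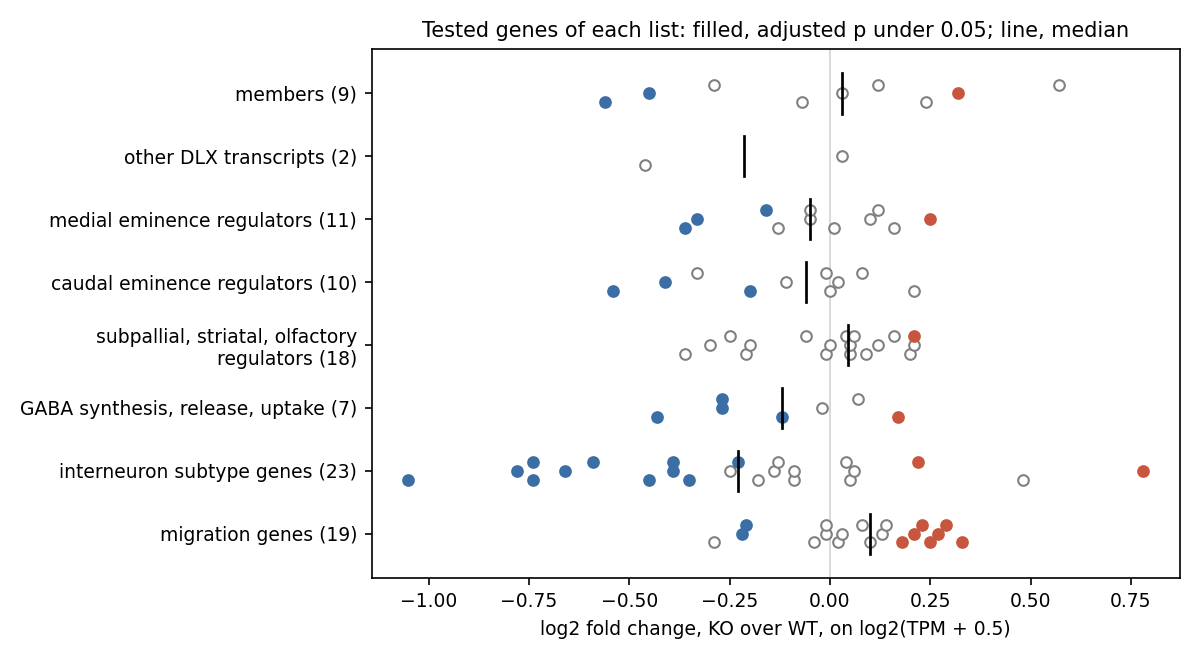
Log2 fold change of KO over WT on log2(TPM + 0.5) (horizontal axis) for every tested gene of the members and of the 7 lists, with the number tested in brackets, filled points for an adjusted p under 0.05 and a line at the median. The subtype genes have 11 lower and 2 higher calls around a median of -0.23, and the migration genes 7 higher and 2 lower around 0.10.

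Markers of other cells in these unsorted cultures moved alongside, and their part in the members' results was not tested. Summed pan-neuronal markers stood at 6359 to 6385 TPM in WT and 6631 to 6724 in KO, with 1 of 8 genes higher and 1 lower. Excitatory neuron markers summed to 1080 to 1102 TPM in WT and 816.2 to 861.7 in KO, with 5 of 10 lower, among them Slc17a7, and 1 higher. Striatal projection neuron markers summed to 314 to 326.9 TPM in WT and 282.2 to 295.9 in KO, with 5 of 10 lower and Penk higher. Progenitor markers summed to 676.2 to 756.1 TPM in WT and 562.9 to 596.5 in KO, with 2 of 9 tested lower, Nes and Vim. Vim alone fell from a mean of 440.1 to 317.8 TPM, and the median log2 fold change was -0.13. Mki67, Top2a, Ccnb1 and Cdk1 lay lower in KO without overlap and did not pass. Sox2, Hes5 and Pax6 had higher means in KO, with overlap, and did not pass either.

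Astrocyte markers summed to 2272 to 2311 TPM in WT and 2494 to 2642 in KO, but their median log2 fold change was -0.05. Of the 10, Aldoc (693.7 to 965.5 TPM) and Slc1a3 (653.6 to 731.5 TPM) rose and Aldh1l1 fell. Without overlap but not past the threshold, Gfap, Aqp4, S100b and Gja1 lay lower in KO and Fgfr3 higher. Such separation held for 31.7% of all genes tested. Oligodendrocyte lineage markers overlapped, at 707.2 to 757.8 and 699.8 to 741.4 TPM, with 2 of 9 tested lower. Meningeal fibroblast markers summed to 218.2 to 227.2 TPM in WT and 237.4 to 261.3 in KO, with 3 of 8 higher. Most of that sum was Pdgfra, which is also in the oligodendrocyte list, at a mean of 148.2 TPM in WT and 150.8 in KO. Lum rose 3.67-fold, Col1a1 2.13-fold and Dcn 1.24-fold. Col1a2 and Col3a1 lay higher in KO without overlap and did not pass. Fn1 and Igf2 had higher means in KO, with overlap, and did not pass either. Endothelial and mural markers summed to 47.46 to 63.55 TPM in WT and 31.23 to 44.03 in KO, with 1 of 6 tested lower (Kdr) and a median log2 fold change of 0.05. Acta2, the largest of them, lay lower in KO without overlap (mean 35.58 to 20.92 TPM) and did not pass. Cdh5, Pdgfrb and Rgs5 had higher means in KO, with overlap. Microglial markers summed to 2.168 to 2.392 TPM in WT and 2.182 to 4.219 in KO, with 9 of 10 under the filter. No marker was at 0 in all 6 libraries. Of the 9 marker lists, the pan-neuronal one had the highest summed level in each library.

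Genes whose annotated start lies within 500 kb of a member's start were read from the same fit. Of 34 tested, 2 rose and 3 fell. Around Dlx1 and Dlx2, 11 were tested: Metap1d fell to 76.94% of WT (limma adjusted p = 0.0031), the iron reductase gene Cybrd1 fell to 72.05% (adjusted p = 0.0078), and the pyruvate dehydrogenase kinase gene Pdk1 rose 1.176-fold (adjusted p = 0.037). The call of Pdk1 was lost in 7 of 17 alternatives, among them those without KO replicate 3 or any WT replicate. None of 3 around Dlx5 and Dlx6, of 6 around Lhx6, of 1 around Nkx2-1 and of 7 around Sp9 passed by limma or by voom. At an unadjusted p under 0.05, 1 around Lhx6 was higher, 1 was lower, and 2 around Sp9 were lower, with 0 around Dlx5 and Dlx6 or Nkx2-1. Around Sox6, Plekha7 fell to 75.4% of WT (adjusted p = 0.02) and Rps13 rose 1.08-fold (adjusted p = 0.03), calls lost in 6 and 8 of 17 alternatives. Those of Plekha7 were lost without each library except KO replicate 1, those of Rps13 without each except KO replicate 3.

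The mean centred log2 profile of the 4 DLX genes and Dlx6os1 was 0.09, -0.08 and 0.09 in WT replicates 1 to 3 and 0.10, -0.10 and -0.10 in KO, and the groups overlapped. It averages genes with log2 fold changes above 0 (Dlx1 0.32, Dlx2 0.24) and below 0 (Dlx5 -0.56, Dlx6 -0.07, Dlx6os1 -0.29). Opposite changes cancel in it, so neither it nor the genes most like it stand for a single member. The 5 genes with the most similar profile, by the root mean square difference over the 6 libraries among 14060 genes, were Diap2 (0.0243), Rpe (0.0249), 9430020K01Rik (0.0277), Map3k3 (0.0279) and Gt(ROSA)26Sor (0.0297), against a median of 0.122 over all genes. Between single members, Dlx1 and Dlx2 were the most alike, with a difference of 0.07, followed by Sox6 and Sp9 with 0.09. Dlx5 differed from its neighbour Dlx6 by 0.31 and from Lhx6 by 0.18.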

How the data were processed

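The deposited table gives 1 column per library. Its name says FPKM, but each column sums to 1000000, so the deposited values were treated as TPM, which was 1 of the units the planned test allowed for. Per the submitters' processing notes the authors' tools were TopHat, featureCounts, edgeR, Picard 1.127, bcl2fastq 2.17 and FastQC 0.11.2, in no stated role, and the build was mm10. Annotation, strand setting and scaling were not stated. KO was compared with WT over all 6 libraries by limma 3.58.1 (R 4.3.3) on log2(TPM + 0.5) with a variance trend and no covariates, over the 14983 genes whose mean reached 0.5 TPM. The Benjamini-Hochberg adjustment covered all of them, and the method was tested on simulated data. A fold or percent of WT is the ratio of the group means, and the fitted log2 fold change stands beside it.

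Whole counts were recovered from the values for all 19369 entries above 0, within 0.001 counts, as the smallest whole numbers that fit, and served to state depth and for voom. Library pairs within a group differed by 1.26 to 2.03 times counting noise, so no library was a copy of another. Whether the libraries came from separate cultures cannot be read from these values. The members and lists were chosen with earlier results of these data known. Named genes were the members, Kdm6b, Gad1, Gad2 and Slc32a1, up to 4 called genes of each list with the smallest p (2 where none passed), called genes within 500 kb of a member and the 5 genes with the most similar profile. Further called genes of small lists (Abat, Erbb4, Reln, Chodl and others given by name) were added after their values were seen. A few genes that the rule names are not reported here. Positions come from GENCODE M21 on GRCm38, where 94.6% of names were found. Promoter sequences come from RefSeq on GRCm38.p6. Intervals of folds come from the limma fit on log2(TPM + 0.5), are not adjusted for the number of genes and cover the spread between libraries.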

Additional observations from a re-analysis of the deposited data

How the results depend on the processing

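The calls of Dlx1 and Lhx6 held in all 17 alternatives, and that of Dlx5 in 10. Members called higher numbered 1, but 2 with median centring, 2 with quantile normalization and 3 with voom on recovered counts, the additions being Dlx2 and, with voom, Nkx2-1. Members called lower numbered 2, but 3 with voom (Dlx6os1 added), 1 with no filter and 1 with no variance trend, and 1 to 3 when single libraries were left out. Leaving out single libraries gave 345 to 440 genes higher and 493 to 678 lower among all genes, and 7 to 9 genes of the lists higher against 12, with 7 both without KO replicate 2 and without KO replicate 3. Across all genes, 406 were higher and 658 lower with no variance trend, and 1183 higher with voom. The replicate block gave 360 higher and 585 lower and kept the calls of Dlx1, Dlx5 and Lhx6. The labels do not say whether the replicate numbers pair the samples. The same-number correlations of deviations were 0.00775, -0.0511 and 0.011, so no shared signal was seen, which does not settle how the samples were prepared. The log2 fold change of Dlx6 ranged from -0.233 (without WT replicate 2) to 0.057 (without WT replicate 1), a change of sign. Relative to the GABA genes, Dlx6os1 at 0.03 was 0.146 against Gad1 alone, -0.020 against Gad2 alone and -0.021 against Slc32a1 alone, and with single libraries left out it ranged from -0.012 (without KO replicate 1) over -0.011 (without WT replicate 1) to 0.105 (without WT replicate 3). The cause of these changes was not tested. With the filter at 2 TPM, Nkx2-1 could not be tested. Depth limits Nkx2-1, Dlx6 and Dlx5 most, with 62, 203 and 449 counts over the WT libraries.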
